A study of Mus musculus with 6 samples.

Results

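Imprinted genes are transcribed mainly from the copy inherited from 1 parent, and 36 of them, listed by symbol, are described here in whole ovaries of day 1 mice. Of the 36, 35 had a row among the 25164 gene symbols measured, and Nespas was not analysed here. By textbook assignment 13 of the 36 were classed as expressed mainly from the maternal copy and 21 from the paternal copy. Gnas and Ddc, the other 2, were classed as dependent on tissue or isoform. Which copy was active in the newborn ovary was not measured for any member, so these classes are labels only. All libraries came from C57BL/6 mice at day 1. The 3 conditional knockout (cKO) libraries were from hnRNPL flox/flox;Stra8-cre animals, in which a Cre recombinase driven in germ cells deletes the floxed gene for an RNA-binding splicing regulator. The 3 controls are labelled wild type, and whether they carry floxed alleles is not stated in the labels. Cre acts in germ cells, so the somatic cells that make up most of the tissue keep the gene. The extraction text, shared by all 6 libraries, speaks of a hormone challenge that it does not specify. Nothing in the labels says whether libraries of 1 group came from separate or pooled animals, so the p-values measure only the spread between these libraries.

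As background, the 2 copies of an imprinted gene are told apart by DNA methylation that was laid down in the egg or sperm. Primordial germ cells erase these marks, and oocytes write the maternal ones while they grow after birth. Somatic cells keep them, and many imprinted genes are active in embryonic and newborn mesenchyme and are known for their effect on growth. The measurements are transcript levels of both copies together, so they show the amount of RNA and not which copy it came from.

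The sequences shown first are the windows around the annotated starts of the 3 long non-coding RNAs of the Dlk1-Meg3 locus and upstream of Ascl2, because those 4 genes hold 4 of the 5 smallest p-values among the members. They were taken from RefSeq (GRCm38.p6), 5′ to 3′ on the gene's own strand, and capitals mark the 6 letters TGCCGC, the motif of the imprint-protecting factor ZFP57, or their reverse complement. The Meg3 window (chr12:109540746-109541045, plus strand) runs from 250 bases before the start to 50 after it.
Meg3: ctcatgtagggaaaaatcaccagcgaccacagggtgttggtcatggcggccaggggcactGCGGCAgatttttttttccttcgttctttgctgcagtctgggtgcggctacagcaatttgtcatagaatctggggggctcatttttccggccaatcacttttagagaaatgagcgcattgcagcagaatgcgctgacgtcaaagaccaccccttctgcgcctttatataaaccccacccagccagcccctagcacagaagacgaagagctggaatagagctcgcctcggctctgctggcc
The Rian window (chr12:109603695-109603994, plus strand) has the same layout.
Rian: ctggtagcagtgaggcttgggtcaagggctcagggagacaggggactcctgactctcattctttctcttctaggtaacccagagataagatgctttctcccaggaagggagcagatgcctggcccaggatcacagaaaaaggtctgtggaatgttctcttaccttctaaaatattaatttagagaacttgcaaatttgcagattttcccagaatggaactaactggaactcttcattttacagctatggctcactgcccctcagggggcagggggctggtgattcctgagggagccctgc
The Mirg window (chr12:109734731-109735030, plus strand) has the same layout.
Mirg: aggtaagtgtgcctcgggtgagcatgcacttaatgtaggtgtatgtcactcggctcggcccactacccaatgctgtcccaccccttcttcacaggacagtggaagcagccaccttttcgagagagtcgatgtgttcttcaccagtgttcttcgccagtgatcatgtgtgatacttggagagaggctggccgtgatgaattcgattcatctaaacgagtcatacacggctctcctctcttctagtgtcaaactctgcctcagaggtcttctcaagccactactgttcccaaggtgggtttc
For Ascl2 the 250 bases before the start are shown (chr7:142969265-142969514, minus strand).
Ascl2: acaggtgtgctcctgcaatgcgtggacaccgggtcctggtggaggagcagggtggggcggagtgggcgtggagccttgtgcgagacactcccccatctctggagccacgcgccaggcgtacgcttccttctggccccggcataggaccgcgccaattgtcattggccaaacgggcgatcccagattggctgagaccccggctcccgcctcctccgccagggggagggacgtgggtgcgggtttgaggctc
The Meg3 window held 1 match, and the printed stretches of Rian, Mirg and Ascl2 held 0. They held 13, 0, 10 and 19 CpG dinucleotides in the order Meg3, Rian, Mirg, Ascl2. RefSeq gave 46 windows for 28 of the members, of which 10 (21.7%) held the motif on either strand, against 11.6% of 32851 windows over all genes. The windows with a match belonged to Zdbf2, Nnat, Mest, Zim1, Snrpn, Igf2, Plagl1, Grb10 and Meg3, and those of Mest were 2 windows that overlap. The median window of the members held 10.5 CpG dinucleotides, against 7 over all genes. The motif itself holds a CpG, and the part of CpG content in the share of windows with a match was not tested. A match of letters is a description of the window and not a measured site.

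The libraries differed in depth and in scale. Depth, estimated from the smallest steps of the deposited values, was 7200000 fragments in cKO replicate 1 and 10800000 to 14400000 in the other 5 libraries. FPKM (fragments scaled to transcript length and library size) summed to 335667 in cKO replicate 1 and to 223845 to 246121 in the others. Median-of-ratios scaling, which aligns the libraries on their median gene, divided cKO replicate 1 by 1.18 and the other libraries by 0.949 to 0.989, so values are given with and without that scaling where it matters. Hnrnpl stood at 101, 81.5 and 85.2 FPKM in cKO replicates 1 to 3 versus 104, 93.8 and 102 FPKM in controls 1 to 3, with overlapping groups (limma adjusted p = 0.571). A gene-level value does not show the floxed exons, so it is a weak check of the labels. After scaling Hnrnpl was lower in all 3 cKO libraries, at a log2 fold change of -0.26 (limma adjusted p = 0.15). The defining markers of the ovary were present: Foxl2, of pregranulosa cells, stood at 59.2 ± 1.44 FPKM and Dazl, of germ cells, at 10.3 ± 1.44 FPKM in wild type (SD, n = 3).

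The imprinted genes spanned a wide range of levels. H19, a long non-coding RNA and the precursor of a microRNA, stood at 529 ± 9.84 FPKM in wild type (SD, n = 3) and ranked 24 among all symbols by its mean over the 6 libraries. Gnas, the stimulatory G protein alpha subunit, followed at 249.1 ± 1.74 FPKM, and Igf2, the fetal growth factor, at 168 ± 6.92 FPKM. These 3 genes carried 62.3% to 68.4% of the members' summed FPKM in each library, and H19 alone 34.7% to 40.0%. At the other end Phlda2, Slc22a18, Ddc, Magel2 and Asb4 had means under 1 FPKM and were not tested. Phlda2, a placental growth repressor, was listed at 0 in 3 of 6 libraries and at 0.251 to 0.849 FPKM in the others. FPKM is a level per transcript length, so these levels can be compared between genes only roughly. The transcript lengths used and the use of strand are not given.

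**Figure D1:**
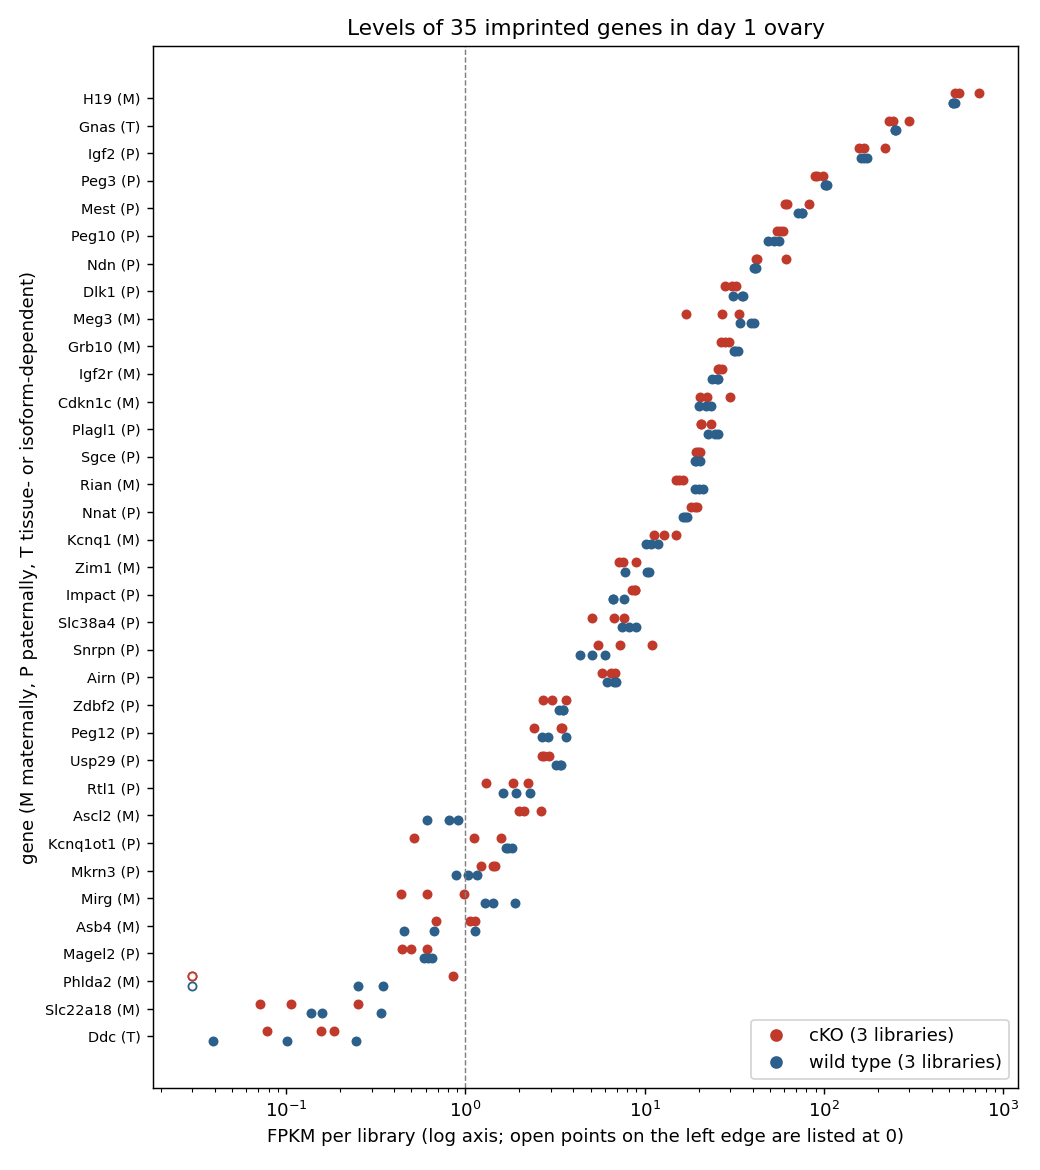
Level of each of 35 imprinted genes in every library, in FPKM on a log axis, ordered by the mean over 6 libraries; red points are cKO, blue points wild type, M, P and T give the expressed copy, and the dashed line is the mean of 1 FPKM needed for testing. H19 is at the top at 523 to 731 FPKM, and the red and blue points of Ascl2 and Mirg lie apart.

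Between cKO and wild type none of the 30 imprinted genes tested passed over all genes. That was 0 of 10 maternally expressed genes, 0 of 19 paternally expressed genes and the single tested gene of the third class, Gnas (limma on log2(FPKM + 1), Benjamini-Hochberg adjusted p from 0.087 upward). Over all 12442 genes tested 15 passed, which is 0.121%, with 0.0482% higher and 0.0723% lower in cKO. At an unadjusted p under 0.05 stood 5 of the 30, against 14.2% of all genes. After median-of-ratios scaling again 0 of 30 passed, where 1.29% of all genes did (0.764% higher and 0.531% lower), and 10 of 30 were under 0.05 unadjusted, against 18.9% of all genes. Only after quantile normalization did 1 member pass, Ascl2 (limma adjusted p = 0.0383, with a range of 0.0383 to 0.347 over all settings that gave a value), where 1.9% of all genes passed. The median log2 fold change was -0.03 over the 30 genes, -0.06 over the maternally expressed and -0.05 over the paternally expressed genes, beside 0.08 over all genes tested. After scaling these medians were -0.10, -0.14 and -0.13, beside 0.00. Of the 30 values 15 were positive and 15 negative, beside 8108 positive and 4334 negative over all tested genes. After scaling 11 were positive and 19 negative, beside 6221 and 6215.

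The groups did not overlap for 13 of the 30 genes, 6 higher in cKO and 7 lower. Over all tested genes 22.6% did not overlap, 15.5% higher and 7.03% lower. Those higher in all 3 cKO libraries were Ascl2, Impact, Mkrn3, Ndn, Nnat and Igf2r. Those lower in all 3 were Meg3, Rian, Mirg, Kcnq1ot1, Grb10, Usp29 and Peg3. After scaling 3 were higher and 9 lower without overlap, beside 12.5% and 13% of all genes. An exact permutation test of 3 against 3 libraries cannot go below 0.1. Groups without overlap always give that value, so for these 13 genes the test adds nothing to the lack of overlap.

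**Figure D2:**
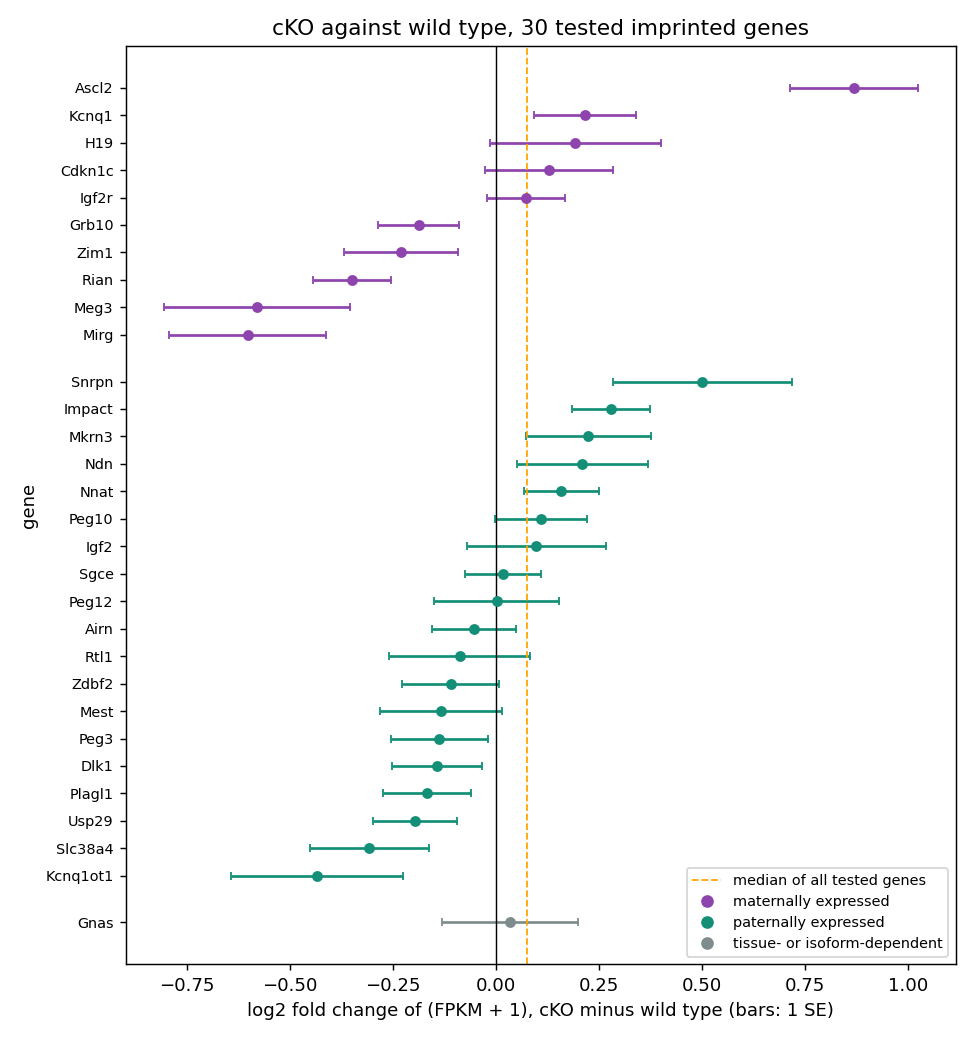
Log2 fold change of (FPKM + 1), cKO minus wild type, with 1 SE for the 30 tested imprinted genes, grouped by the expressed copy; the orange line is the median of all tested genes at 0.08. Mirg at -0.60 and Meg3 at -0.58 are lowest and Ascl2 at 0.87 is highest, and both classes lie on either side of 0.

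Among the 36 genes, the Dlk1-Meg3 locus on chromosome 12 holds 2 paternally expressed protein genes, Dlk1 and Rtl1. It also holds the maternally expressed RNAs Meg3, Rian and Mirg, which are transcribed in the same direction and host many microRNAs and small nucleolar RNAs. All 5 had negative fold changes, beside 4334 negative and 8108 positive over all tested genes. The 3 maternal RNAs stood below every wild type library in each cKO library. Dio3, a paternally expressed gene of this domain outside the 36, overlapped between the groups. Its log2 fold change was 0.09 (limma adjusted p = 0.828). Meg3 (chromosome 12, 109540996 to 109571729) stood at 17.0, 27.1 and 33.8 FPKM in cKO replicates 1 to 3 versus 39.1, 34.2 and 40.5 FPKM in controls 1 to 3. The highest cKO value lies just under the lowest wild type value, and cKO replicate 1 is far below the rest. Its log2 fold change was -0.58 (SE 0.23, limma adjusted p = 0.317), and without cKO replicate 1 it was -0.31.

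Rian (109603945 to 109661716) had tight groups, at 15.6, 14.99 and 16.3 FPKM across cKO libraries, versus 21.1, 19.2 and 20.2 FPKM across controls. Its fold change, -0.35 on the log2 scale with an SE of 0.09, also missed the threshold, with a limma adjusted p of 0.195 unscaled and 0.0784 scaled. Mirg (109734981 to 109749458) was rare, at 0.612, 0.977 and 0.435 FPKM across cKO libraries, versus 1.89, 1.29 and 1.43 FPKM across controls. Every cKO value was under every wild type value, and the ratio of the group means was 0.44. By its longest annotated transcript these levels stand for about 17 to 40 fragments in the cKO and 60 to 100 in the wild type libraries. Its log2 fold change was -0.60 (SE 0.19, limma adjusted p = 0.242), and -1.12 with a pseudocount of 0.1 FPKM.

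The paternal members of the locus had fold changes nearer to 0. Dlk1, a membrane protein related to Notch ligands, stood at 32.2, 30.9 and 28.3 FPKM across cKO libraries, versus 35.3, 31.1 and 34.8 FPKM across controls, with overlapping groups (log2 fold change -0.14, limma adjusted p = 0.555). Rtl1, a retrotransposon-derived gene, lay between 1.30 and 2.30 FPKM in all 6 libraries. Rtl1 is annotated on the strand opposite to the maternal RNAs, and the labels do not say whether counting used strand, so reads of the 2 strands may not be told apart there.

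Summed markers of several somatic cell types were lower in the same libraries. The 14 stroma and mesenchyme markers, all measured and none at 0, summed to 840 to 925 FPKM in cKO and 1097 to 1151 FPKM in wild type, and to 787 to 879 and 1129 to 1164 after scaling. The 8 endothelial markers summed to 65.6 to 80.7 and 81.4 to 103 FPKM, and the 8 pericyte and smooth muscle markers to 50.9 to 57.0 and 68.9 to 74.3 FPKM. The 8 surface epithelium markers summed to 147 to 227 FPKM in cKO and 236 to 259 FPKM in wild type. Of the surface epithelium markers 1 passed, Upk1b, a uroplakin, which fell by 1.47 on the log2 scale (limma adjusted p = 0.0428). After scaling 3 of them passed as lower, Upk1b (limma adjusted p = 0.00332), Upk3b (0.0131) and the keratin gene Krt19 (0.043). In that fit 4 stroma markers (Col5a2, Nr2f2, Postn and Dpt) and the pericyte and smooth muscle marker Acta2 also passed as lower. No endothelial marker passed. Over all tested genes 0.0723% passed as lower unscaled and 0.531% after scaling. The 13 pregranulosa markers summed to 496 to 612 and 507 to 516 FPKM, with overlapping groups. Single markers went both ways: of 12 tested, Foxl2, Kitl and Amhr2 were higher and Lhx9, Rspo1 and Wt1 lower in all 3 cKO libraries. Unscaled 0 of the 12 passed. Over all tested genes 15.5% were higher and 7.03% lower in all 3 cKO libraries. After scaling Lhx9 (limma adjusted p = 0.0144) and Rspo1 (0.0253) passed as lower. In bulk tissue fewer cells of a type and less RNA per cell cannot be told apart, and the part of cell makeup in the Dlk1-Meg3 values was not tested.

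**Figure D3:**
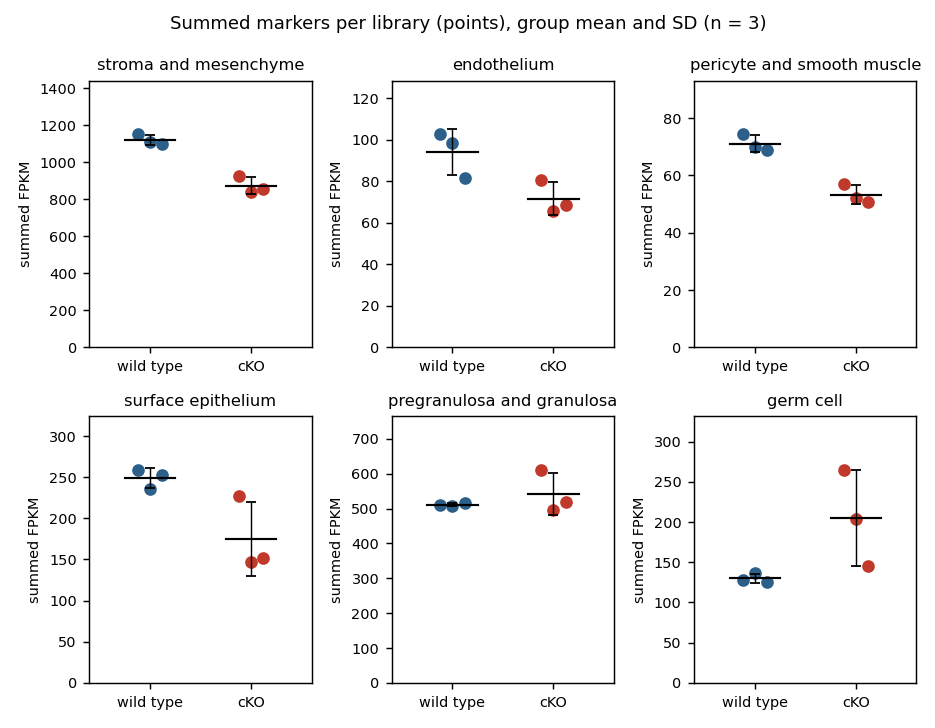
Summed FPKM of the markers of 6 cell types in every library, with the group mean and SD (n = 3). The sums for stroma, endothelium, pericytes and surface epithelium are lower in all 3 cKO libraries, and those for pregranulosa cells overlap. The germ cell sum is higher at 146 to 265 FPKM against 126 to 136 FPKM. Singly, 6 of the 12 germ cell markers are higher and 2 lower without overlap, beside 15.5% and 7.03% of all tested genes.

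The Kcnq1 domain on chromosome 7 is silenced on the paternal copy around the long antisense RNA Kcnq1ot1, and it held the member with the largest positive fold change. Ascl2 (chromosome 7, 142966822 to 142969264), a basic helix-loop-helix factor best known from trophoblast and intestinal stem cells, stood at 2.12, 2.63 and 1.995 FPKM across cKO libraries, versus 0.913, 0.607 and 0.813 FPKM across controls. Every cKO library had more than every wild type library, and the ratio of the means was 2.89. The log2 fold change was 0.87 (SE 0.16) and did not pass (limma adjusted p = 0.087, and 0.0613 after scaling). With a pseudocount of 0.1 FPKM it was 1.43. By the longest annotated transcript the values stand for about 24 to 46 fragments in cKO and 13 to 21 in wild type, so few fragments carry the difference. The 12 germ cell markers, all measured and none at 0, summed to 146 to 265 FPKM in cKO and 126 to 136 FPKM in wild type. Of these 9 had positive fold changes, beside 8108 of 12442 over all tested genes, and 0 passed as higher. Zp3, an egg coat protein, fell by 1.51 on the log2 scale (limma adjusted p = 0.0437). After scaling 3 passed as higher, the RNA-binding protein gene Dazl (limma adjusted p = 0.043), Tex15 (0.0155) and Mov10l1 (0.0177), the latter both of the germline defence against transposons. In that fit 2 passed as lower, Zp3 (limma adjusted p = 0.0132) and the oocyte growth factor gene Gdf9 (0.039). Over all tested genes 0.0482% passed as higher and 0.0723% as lower unscaled, and 0.764% and 0.531% after scaling. The part of germ cell RNA in the Ascl2 values was not tested.

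Kcnq1ot1 itself was singled out once its values were known. It stood at 0.519, 1.12 and 1.58 FPKM across cKO libraries, versus 1.68, 1.73 and 1.81 FPKM across controls. The wild type libraries were close together, and cKO replicate 1 was lowest, as for Meg3. The log2 fold change was -0.43 (SE 0.21, limma adjusted p = 0.391), -0.23 without cKO replicate 1 and -0.76 with a pseudocount of 0.1 FPKM. Cdkn1c, an inhibitor of cyclin-dependent kinases, stood at 30.1, 20.3 and 22.2 FPKM across cKO libraries, versus 23.5, 20.0 and 21.9 FPKM across controls. Its groups overlapped (log2 fold change 0.13, limma adjusted p = 0.718). The potassium channel gene Kcnq1 lay between 10.2 and 14.99 FPKM with overlapping groups, and its reads and those of Kcnq1ot1 on the opposite strand may not be told apart. Slc22a18, a transporter, and Phlda2 were too low to test.

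**Figure D4:**
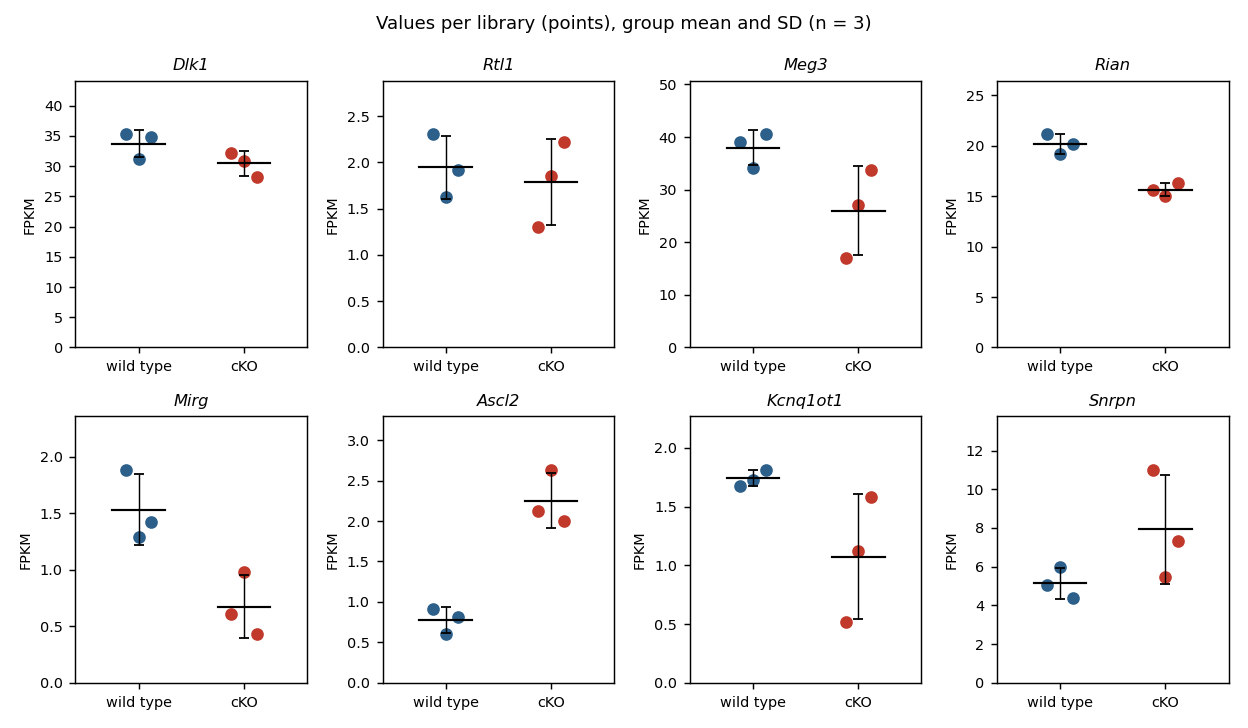
FPKM per library of the 5 Dlk1-Meg3 members, of Ascl2 and Kcnq1ot1 from the Kcnq1 domain and of Snrpn. Lines give the group mean and SD (n = 3), and axes start from 0. Meg3, Rian, Mirg and Kcnq1ot1 are lower and Ascl2 is higher in all 3 cKO libraries, while Dlk1, Rtl1 and Snrpn overlap.

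Members of the insulin-like growth factor axis and other growth regulators included the most abundant genes, and none passed. H19 stood at 731, 537 and 564 FPKM across cKO libraries, versus 541, 523 and 525 FPKM across controls. Its neighbour Igf2 stood at 220.1, 167 and 158 FPKM across cKO libraries, versus 175, 167 and 161 FPKM across controls. In both genes cKO replicate 1 was highest and the rest of the libraries overlapped (limma adjusted p = 0.681 for H19 and 0.801 for Igf2). Without that library the log2 fold change of H19 went from 0.19 to 0.057 and that of Igf2 from 0.0986 to -0.0470. After scaling H19 spanned 555 to 622 for cKO against 532 to 553 for controls, without overlap, with a log2 fold change of 0.11 (limma adjusted p = 0.664). Quantile normalization turned both signs, to -0.08 for H19 and -0.02 for Igf2.

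Igf2r, the receptor that clears IGF2, stood at 27.2, 25.9 and 25.8 FPKM across cKO libraries, versus 25.5, 25.5 and 23.9 FPKM across controls. The groups were separate by a narrow margin (log2 fold change 0.07, limma adjusted p = 0.742), and after scaling they overlapped at a fold change of -0.01. Airn, the paternal RNA antisense to Igf2r, lay between 5.76 and 6.96 FPKM in all libraries. Reads of this pair, and of Mest and Nnat and the genes that overlap them, may likewise not be told apart by strand. Grb10, an adaptor that dampens insulin and growth factor receptor signalling, stood at 29.6, 26.6 and 28.2 FPKM across cKO libraries, versus 33.0, 31.9 and 31.4 FPKM across controls. All cKO values were lower (log2 fold change -0.19, SE 0.10, limma adjusted p = 0.428, and 0.118 after scaling). Gnas stood at 298, 242 and 230.1 FPKM across cKO libraries, versus 248, 248 and 251 FPKM across controls, with overlapping groups (limma adjusted p = 0.934), and its fold change of 0.04 was -0.05 after scaling. Gene-level values do not separate the imprinted from the other isoforms of Gnas.

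Among paternally expressed genes first named for that trait, Peg3, a zinc finger protein, stood at 89.8, 91.1 and 98.5 FPKM across cKO libraries, versus 104, 103 and 101 FPKM across controls. All 3 cKO values were lower by a small margin (log2 fold change -0.14, SE 0.12, limma adjusted p = 0.604). Its neighbours Usp29, a deubiquitinase gene, and the maternally expressed zinc finger gene Zim1 had fold changes of -0.20 and -0.23 (limma adjusted p = 0.423 and 0.470). The 3 genes of this domain thus had a negative sign, beside 4334 negative and 8108 positive over all tested genes, and none passed. Mest, a hydrolase-like protein of mesoderm, stood at 82.7, 60.6 and 61.9 FPKM across cKO libraries, versus 75.9, 75.2 and 72.1 FPKM across controls, where cKO replicate 1 was highest of all. The log2 fold change was -0.13, and -0.28 without that library. After scaling Mest spanned 62.6 to 70.4 for cKO against 76.0 to 76.7 for controls, and the groups no longer overlapped (log2 fold change -0.22, limma adjusted p = 0.188). Peg10, a retrotransposon-derived gene, stood at 58.9, 54.7 and 56.6 FPKM across cKO libraries, versus 49.0, 56.1 and 52.5 FPKM across controls, and Sgce, which shares its promoter region and encodes epsilon-sarcoglycan, lay between 19.02 and 20.4 FPKM throughout.

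In the Snrpn domain, which corresponds to the human Prader-Willi region, the 4 tested genes had fold changes of 0 or above. Over all tested genes 8108 were positive and 4334 negative. After scaling 3 of the 4 were positive and 1 negative. Snrpn, a component of small nuclear ribonucleoproteins, stood at 11.01, 5.48 and 7.32 FPKM across cKO libraries, versus 5.07, 5.99 and 4.38 FPKM across controls. The spread in cKO was wide and the groups overlapped (log2 fold change 0.50, SE 0.22, limma adjusted p = 0.352). Without cKO replicate 1 the log2 fold change was 0.27. Ndn, a MAGE family growth suppressor, stood at 61.3, 42.6 and 41.9 FPKM across cKO libraries, versus 40.8, 41.2 and 41.7 FPKM across controls. Outside cKO replicate 1 the 5 values lay within 40.8 and 42.6 FPKM, and the log2 fold change was 0.21 with that library (limma adjusted p = 0.551) and 0.035 without it. Mkrn3, a ring finger gene, stood at 1.37 ± 0.132 FPKM across cKO libraries, versus 1.03 ± 0.142 FPKM across controls (mean ± SD over n = 3 libraries, with a limma adjusted p of 0.520). Peg12 had a fold change of 0.00, which turned negative after scaling (-0.06).

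The remaining members lie alone or in smaller clusters. Impact, which restrains the kinase GCN2, the sensor of amino acid shortage, stood at 8.84, 8.79 and 8.52 FPKM across cKO libraries, versus 6.69, 7.70 and 6.66 FPKM across controls. All cKO values were higher (log2 fold change 0.28, SE 0.09, limma adjusted p = 0.265), and after scaling the groups overlapped, at a fold change of 0.20. Nnat, a membrane proteolipid, had a fold change of 0.16 and Plagl1, a zinc finger regulator of other imprinted genes, one of -0.17 (limma adjusted p = 0.455 and 0.495). Slc38a4, an amino acid transporter, stood at 6.50 ± 1.30 FPKM across cKO libraries, versus 8.21 ± 0.740 FPKM across controls (mean ± SD over n = 3 libraries, with a limma adjusted p of 0.380, and 0.125 after scaling). Zdbf2 lay between 2.71 and 3.64 FPKM in all libraries.

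Ratios of 2 imprinted genes within a library do not move with its scaling. For 11 pairs, the log2 ratio of (FPKM + 1) values, on which scaling acts only through the added 1, was compared by exact two-sided permutation tests. None was below an adjusted p of 0.367, and 0.1 is the smallest p the design allows. The Igf2 to H19 ratio was 0.301, 0.310 and 0.280 for cKO against 0.323, 0.320 and 0.307 for controls, with overlapping groups (exact p = 0.2). Dlk1 to Meg3 was 1.90, 1.14 and 0.836 for cKO against 0.902, 0.910 and 0.860 for controls, where cKO replicate 1 stood apart (exact p = 0.4). Meg3 to Rian was 1.09 in cKO replicate 1 and 1.78 to 2.07 in the other 5 libraries, and without that replicate its group difference turned from -0.23 to 0.03. The groups did not overlap for Sgce to Peg10, at 0.337 to 0.359 for cKO against 0.362 to 0.393 for controls, and for Grb10 to Igf2, at 0.135 to 0.178 and 0.189 to 0.195 (exact p = 0.1 for both, adjusted p = 0.367).

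**Figure D5:**
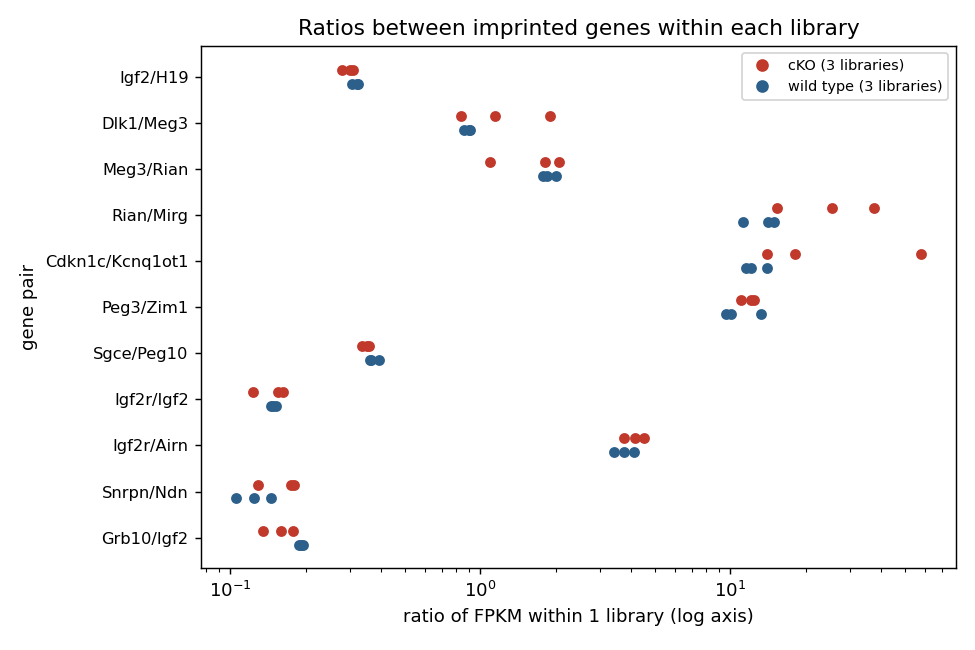
Ratio of FPKM between 2 imprinted genes within each library, on a log axis, for 11 pairs; red points are cKO and blue points wild type. Igf2 to H19 stays within 0.280 and 0.323, while Dlk1 to Meg3, Rian to Mirg and Cdkn1c to Kcnq1ot1 are spread in cKO.

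Factors that lay down, read or protect imprints were also measured, since they act on the same genes. Of 32 such genes 31 were measured and 28 tested, and 0 passed (limma, smallest adjusted p = 0.244), with 4 at an unadjusted p under 0.05, beside 14.2% of all genes, and a median of 0.02. After scaling 0 passed and 6 were under 0.05 unadjusted, beside 18.9% of all genes. Kdm1b, the histone demethylase that oocytes need to set maternal imprints, stood at 35.02 ± 7.56 FPKM across cKO libraries, versus 24.4 ± 1.66 FPKM across controls (mean ± SD over n = 3; log2 fold change 0.49, limma adjusted p = 0.244). Its 3 cKO values were above all wild type values. Zfp445, a zinc finger protein that protects imprints, stood at 15.4 ± 1.15 and 18.4 ± 1.004 FPKM (limma adjusted p = 0.347), and Tet2, which oxidizes methylated cytosine, at 8.85 ± 0.608 and 10.5 ± 0.120 FPKM (adjusted p = 0.334). Kdm1a, a related demethylase, stood at 27.1 ± 4.09 and 21.7 ± 0.183 FPKM (limma adjusted p = 0.339). Dnmt3l, the cofactor of imprint establishment in growing oocytes, was listed at 0 in all wild type libraries and in cKO replicates 2 and 3, and at 0.290 FPKM in cKO replicate 1, and was not tested.

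Partners of IGF2 form the insulin-like growth factor list, of which 22 of 26 genes were tested. None passed (limma, smallest adjusted p = 0.201), 7 were under 0.05 unadjusted, beside 14.2% of all genes, and the median was -0.03. After scaling 2 passed, both lower, where 1.29% of all genes passed and 0.531% as lower. Unscaled and without cKO replicate 1 the number was 2, where 0.717% of all genes passed. Igfbp2, a binding protein that holds the growth factors, stood at 38.4, 25.8 and 25.1 FPKM across cKO libraries, versus 45.7, 43.1 and 45.5 FPKM across controls. All cKO values were below the wild type values (log2 fold change -0.60, limma adjusted p = 0.201), and after scaling the fold change was -0.69 (adjusted p = 0.0252). Igfbp5, another binding protein, stood at 176 ± 18.6 and 243 ± 7.34 FPKM in cKO and controls (mean ± SD over n = 3 libraries, with a limma adjusted p of 0.244, and 0.0285 after scaling). The Foxo3 gene, whose product holds oocytes dormant downstream of insulin-like signals, stood at 36.3 ± 2.61 and 28.0 ± 0.586 FPKM (limma adjusted p = 0.205), and Irs1, a receptor substrate, at 9.47 ± 0.366 and 11.5 ± 0.312 FPKM (adjusted p = 0.264).

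A further 49 imprinted genes outside the 36 were all measured, and 31 were tested. None passed (limma, smallest adjusted p = 0.176), 1 was under 0.05 unadjusted, beside 14.2% of all genes, and the median was 0.01. Fold changes were positive for 16 and negative for 15, beside 8108 and 4334 over all tested genes. After scaling 0 passed, 5 were under 0.05 unadjusted, beside 18.9% of all genes, and the median was -0.07. The smallest p was that of Xlr4b, an X-linked gene imprinted in brain that belongs to a family of similar copies, at 3.57, 3.86 and 3.54 FPKM across cKO libraries, versus 2.15, 1.595 and 2.67 FPKM across controls. All cKO values were higher (log2 fold change 0.58), and reads may be shared with its copies. Sfmbt2, a Polycomb protein gene, stood at 1.46 ± 0.338 and 0.987 ± 0.132 FPKM in cKO and controls (mean ± SD over n = 3 libraries, with a limma adjusted p of 0.450).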

How the data were processed

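Whole ovaries were measured by RNA sequencing in 6 libraries, 3 per group, grouped by sample title. The authors deposited FPKM values per gene symbol, and per the submitters' processing notes STAR 2.7.11a, HISAT2 2.2.1, featureCounts 2.0.6 and the mm10 build were used, with no roles stated. The program that computed FPKM, the annotation and the use of strand are not given in the sources used here. An abundant transcript lowers all other FPKM values of its library.

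The test covered 12442 genes whose mean reached 1 FPKM. Their log2(FPKM + 1) values were fitted with limma 3.58.1 (R 4.3.3), using its intensity trend and two-sided tests, with Benjamini-Hochberg adjustment over all tested genes and a threshold of 0.05. The scale understates changes of low genes. Of the steps, only the limma fit was tested on simulated data, with genes drawn independently and no differences in scale between libraries. Depth was estimated from the value of 1 fragment in single-transcript genes of at least 1500 bp, assuming fragments of 200 bp. Coordinates and promoter windows came from RefSeq (GRCm38.p6), strands and transcript lengths from GENCODE M21.

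Members, lists and tests were chosen with earlier results of these data known. Values per library are given for members that passed, the 12 members with the highest mean and the 6 with the smallest p; in other lists the 2 to 4 genes with the smallest p are named. Other settings tried were median-of-ratios scaling, quantile normalization, a smaller pseudocount (0.1 FPKM), dropping the filter or raising it to 5 FPKM, dropping the trend, adding a replicate block, and omitting libraries in turn.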

Additional observations from a re-analysis of the deposited data

How the results depend on the processing

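Of the 30 tested imprinted genes, 20 kept 1 sign in each setting that gave them a value and 10 changed sign in at least 1. Median-of-ratios scaling turned Igf2r to -0.012, Peg12 to -0.0641, Sgce to -0.0662 and Gnas to -0.0526. Quantile normalization turned H19 to -0.0824, Igf2 to -0.0222, Igf2r to -0.0465, Peg10 to -0.0266, Peg12 to -0.0352, Sgce to -0.0881 and Gnas to -0.14, and only there did Ascl2 pass (0.89). Leaving out 1 library gave ranges that include 0 for Airn (-0.0996 to 0.00872), Cdkn1c (-0.0331 to 0.24), Gnas (-0.0773 to 0.11), Igf2 (-0.0470 to 0.19), Peg12 (-0.0673 to 0.13), Rtl1 (-0.198 to 0.0463), Sgce (-0.0020 to 0.0469), and the log2 ratios of Igf2r to Igf2 (-0.10 to 0.10) and Meg3 to Rian (-0.412 to 0.0342). Ascl2, Kcnq1ot1, Mirg, Mkrn3, Peg12, Rtl1, Usp29 and Zdbf2 were under the filter at 5 FPKM and have no value there, and Mirg has none without wild type replicate 1. The cause of these shifts was not tested.

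Counts over all genes, given as total, higher and lower in cKO where they moved, depended on the setting. They were 34 with 24 higher for a pseudocount of 0.1 FPKM, 5 with 0 higher and 5 lower with no filter, and 23 with 14 higher for the filter at 5 FPKM. They were 161 with 95 and 66 after median-of-ratios scaling, 236 with 131 and 105 after quantile normalization, and 5 with 2 and 3 with no intensity trend. Leaving out 1 library gave 2 to 89 in all, 0 to 63 higher and 2 to 51 lower. The totals were 89 without cKO replicate 1, 4 without cKO replicate 2 and 74 without cKO replicate 3, and 2, 2 and 6 without wild type replicates 1, 2 and 3. Among the members 0 passed in each of those 6 refits. Called genes of the insulin-like growth factor list numbered 2 after median-of-ratios scaling, 3 after quantile normalization (with Igfbp3 beside Igfbp2 and Igfbp5) and 0 to 2 leaving out 1 library. Quantile normalization called 1 member, Ascl2, which counts as maternally expressed by textbook assignment only. It also called 1 gene of the imprint maintenance list, Uhrf1, a reader of hemimethylated DNA, named after its value was seen. The members' median was -0.10 under median-of-ratios scaling and -0.11 under quantile normalization. That of the maternally expressed genes was 0.0439 with no filter, -0.14 and -0.19 under the 2 normalizations and -0.104 to 0.0869 leaving out 1 library. That of the paternally expressed genes was 0.0173 with the filter at 5 FPKM and -0.13 under median-of-ratios scaling. Medians of the growth factor list were -0.11 and -0.13 under the 2 normalizations, and that of the imprint maintenance list was -0.0782 under quantile normalization.

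Replicate numbers are shared between groups, but deviations of same-numbered libraries correlated at only -0.011, 0.039 and 0.068, so the numbers were not taken to pair them. With a replicate block 2 genes passed, 1 higher and 1 lower.

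Depth limits the rare members most: for a 2 kb transcript, 14.4 to 28.8 fragments make up 1 FPKM, and for Phlda2, Slc22a18 and Ddc a difference was not detectable at this depth.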

Other observations

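The table also lists microRNA hairpins. Of 54 hairpins that RefSeq places on the plus strand between the start of Meg3 and the end of Mirg, all 54 had a row, 52 were at 0 in every library, and Mir770 and Mir1197 were above 0 in at least 1. Libraries of long RNA do not measure mature microRNAs, so these values say nothing of their levels.

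The 7 other marker lists covered blood, leukocytes and neighbouring tissues. The 8 skeletal muscle markers summed to 3.43 to 4.32 FPKM in cKO and 3.08 to 6.46 FPKM in wild type, with Myod1 at 0 throughout. The 8 neural and chromaffin markers summed to 3.08 to 4.25 and 3.86 to 4.19 FPKM, with Snap25 at 0 throughout. Sums of the 6 adipocyte markers were 3.07 to 3.35 and 3.49 to 4.37 FPKM. Of these only Lipe was high enough to test, at 2.31 to 3.23 FPKM over all libraries, with overlapping groups (limma adjusted p = 0.77). The 8 macrophage and leukocyte markers summed to 15.1 to 20.1 and 15.5 to 21.3 FPKM, and the 8 steroidogenic markers to 59.7 to 76.5 and 60.9 to 72.6 FPKM. The 6 erythroid markers summed to 463 to 534 FPKM in cKO and 772 to 836 FPKM in wild type. Singly, the 5 tested ones all overlapped between the groups (smallest limma adjusted p = 0.326). After scaling 2 were lower without overlap, beside 13% of all genes. The alpha globin rows spread widely within wild type, Hba-a1 at 69.2 to 433 and Hba-a2 at 77.3 to 421 FPKM. The 8 markers of oviduct, rete and mesonephric epithelium summed to 41.4 to 54.0 and 39.7 to 41.5 FPKM, with Krt5 at 0 throughout.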
